A study of Mus musculus with 6 samples.

Results

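The 10 genes described here import cystine and make, reduce and break down glutathione. They were chosen by these roles, with earlier results of these data known: Slc7a11, Slc3a2, Gclc, Gclm, Gss, Gsr, Ggct, Chac1, Chac2 and Oplah. All 10 were measured among the 18193 genes of the array, by 17 probe sets annotated to 1 gene alone, and each gene is represented by its brightest probe set, judged by the mean of the 6 arrays. Tongues of C57BL/6J mice, an inbred strain, were compared: 3 from mice that drank 4-nitroquinoline 1-oxide (4NQO) at 100 μg/ml for 8 weeks, and 3 from non-treated control mice, with 1 Affymetrix array per tongue. 4NQO is a carcinogen that damages DNA and depletes glutathione, and the arrays set treated against untreated tongue in a study of the transcription factor NRF2 in oral carcinogenesis. Slc7a11 and Gclc are among the genes that the study picked on its tongue arrays of this treatment, so their direction here is not taken as independent evidence. All values are log2 signals as deposited, and 1 unit is a doubling.

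Glutathione is a tripeptide of glutamate, cysteine and glycine that buffers cells against oxidants and is joined to electrophiles such as those made from 4NQO. Cells take up cystine in exchange for glutamate through a transporter whose light chain is Slc7a11 and whose heavy chain is Slc3a2. Glutamate-cysteine ligase, with the catalytic subunit Gclc and the regulatory subunit Gclm, carries out the rate-limiting step, and glutathione synthetase, Gss, adds glycine. Glutathione reductase, Gsr, returns oxidised glutathione to its reduced form with NADPH. Chac1 and Chac2 split glutathione inside the cell, Ggct forms 5-oxoproline from glutamyl amino acids, and Oplah turns 5-oxoproline back into glutamate. In mammals several of these genes, with Slc7a11, Gclc and Gclm among the best known, are NRF2 targets, and Slc7a11 and Chac1 are also targets of ATF4, the transcription factor of the response to amino acid shortage and misfolded protein.

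Sequences before the start sites are shown for the 3 genes whose windows held the letters of an ATF4-type or an NRF2-type site and on which the results below turn. Windows of 300 bases, 250 before to 50 after an annotated start, were found in the RefSeq table of build GRCm38.p6 for 7 of the 10 genes. They were searched on both strands for TGATGNAA (the core of a C/EBP-ATF response element), TGACNNNGC (the core of an antioxidant response element) and TGANTCA (an AP-1 site, which can overlap the antioxidant core). Matches are in capitals in these windows, which read 5′ to 3′ along the gene's own strand: Slc7a11 at chr3:50443564-50443863 on the minus strand, Chac1 at chr2:119350992-119351291 on the plus strand and Gclm at chr3:122245307-122245606 on the plus strand.
Slc7a11: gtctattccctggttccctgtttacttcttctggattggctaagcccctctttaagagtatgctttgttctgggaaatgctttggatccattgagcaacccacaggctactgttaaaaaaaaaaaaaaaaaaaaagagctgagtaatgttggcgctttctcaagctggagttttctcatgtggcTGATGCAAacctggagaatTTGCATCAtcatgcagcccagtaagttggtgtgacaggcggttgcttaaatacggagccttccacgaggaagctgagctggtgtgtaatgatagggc
Chac1: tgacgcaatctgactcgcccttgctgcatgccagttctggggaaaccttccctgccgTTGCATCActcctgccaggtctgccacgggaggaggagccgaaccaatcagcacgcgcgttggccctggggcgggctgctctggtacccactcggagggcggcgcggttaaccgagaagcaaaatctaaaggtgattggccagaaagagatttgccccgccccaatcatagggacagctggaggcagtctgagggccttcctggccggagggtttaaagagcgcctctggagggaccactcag
Gclm: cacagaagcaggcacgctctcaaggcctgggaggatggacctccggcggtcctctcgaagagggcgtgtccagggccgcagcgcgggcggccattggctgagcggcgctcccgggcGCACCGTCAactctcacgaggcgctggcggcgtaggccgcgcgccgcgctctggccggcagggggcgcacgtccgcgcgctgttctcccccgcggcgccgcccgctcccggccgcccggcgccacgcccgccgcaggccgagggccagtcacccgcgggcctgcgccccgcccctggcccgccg

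The Slc7a11 window held TGATGNAA 2 times, once on each strand, with first bases at positions -66 and -47 from the start site, and the Chac1 window held it once on the reverse strand, from position -193. Among the 32851 windows searched, 3.97% held these letters at least once and 23 held them 2 or more times. The Gclm window held TGACNNNGC once, on the reverse strand from position -134, and the Ggct window held it 2 times, from positions -174 and 6, while 12.4% of all windows held it. TGANTCA was in 7.81% of all windows and in none of the 7. In the same build Slc7a11 spans chr3:50364936-50499087 and Gclc, which had no window here, spans chr9:77754535-77794489. Such matches describe letters in these windows only, and binding was not measured.

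In 4NQO-treated tongue 2 of the 10 genes rose, the cystine carrier Slc7a11 and the ligase subunit Gclc, 0 fell and 8 did not pass (limma, threshold of 0.05 on p-values adjusted over all genes). Among all genes tested 0.126% rose by the same rule. Both were picked by the study on its tongue arrays, so this count is not independent evidence. For 7 of the 10 genes (Slc7a11, Slc3a2, Gclc, Gclm, Gss, Gsr and Chac2) every 4NQO array lay above every control array, against 9.59% of all genes. For none did every 4NQO array lie below every control array, against 7.18% of all genes. Those 7 genes were also higher when the limma p was left unadjusted (threshold 0.05), against 6.68% of all genes. The median log2 fold change of the 10 genes was 0.64, beside -0.01 over all genes. Since the 10 genes were chosen with earlier results of these data known, these counts and this median are not independent evidence either. In tongue tissue, with its mix of cells, more cells of a type and more RNA per cell cannot be told apart.

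**Figure D1:**
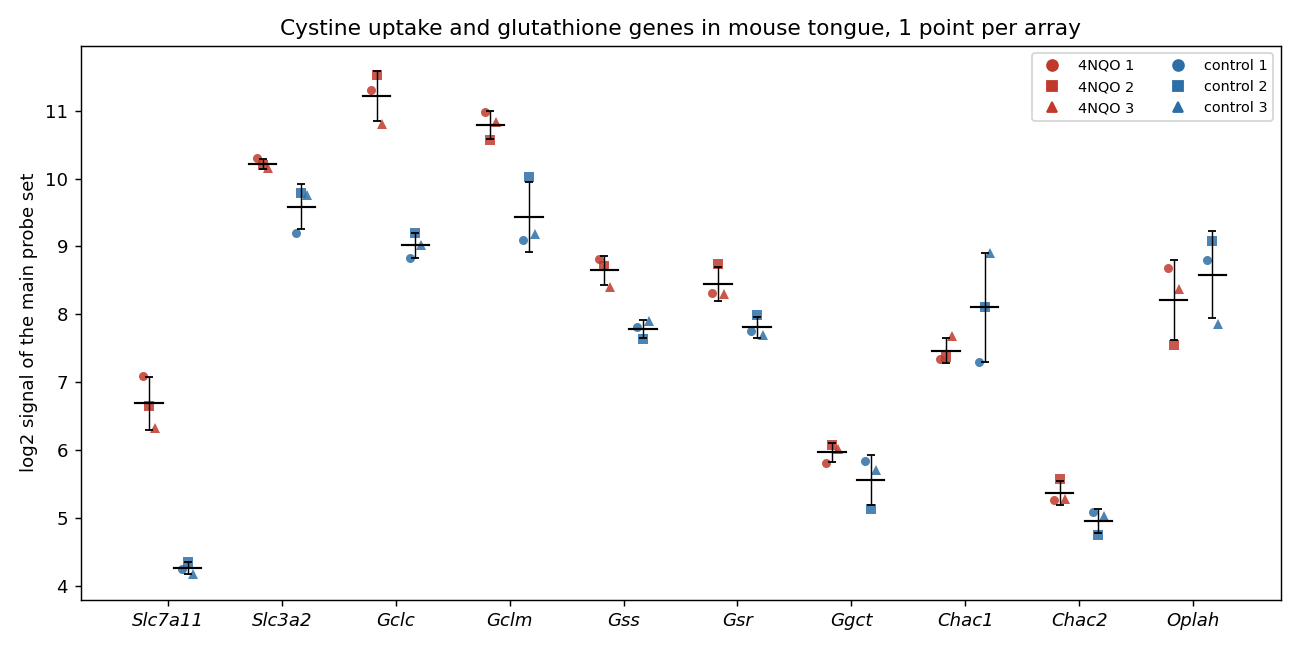
Log2 signal of the main probe set of the 10 genes, with 1 point for each of 3 4NQO and 3 control arrays, a horizontal bar for the group mean and error bars for SD. The 4NQO arrays lie above all control arrays for 7 genes and overlap them for Ggct, Chac1 and Oplah.

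Slc7a11, the light chain that carries cystine, had log2 signals of 7.10, 6.65 and 6.32 in the 4NQO tongues, against 4.24, 4.36 and 4.18 in the control tongues. The groups were far apart, with more spread among the 4NQO tongues (SD 0.39) than among the control tongues (SD 0.09). Slc7a11 rose by 2.43 (log2; standard error, SE, 0.21, 95% confidence interval 1.93 to 2.92, limma, adjusted p = 0.0116). The control values lay below the array medians of 4.57 to 4.60 over all probe sets on those arrays. Whether they stand above background cannot be read from the deposited values, so no linear fold is given. Without 4NQO replicate 2 the adjusted p was 0.0692 and without control replicate 2 it was 0.0529, with log2 fold changes of 2.45 and 2.48. A second, dimmer probe set of Slc7a11 measured 4.47, 4.76 and 3.73 in the 4NQO tongues and 3.56, 3.46 and 3.39 in the control tongues. It was also without overlap, but with a smaller log2 fold change, 0.85 (SE 0.25, limma over all probe sets, adjusted p = 0.329).

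Slc3a2, the heavy chain that Slc7a11 shares with other amino acid transporters, had log2 signals of 10.30, 10.21 and 10.16 in the 4NQO tongues, against 9.21, 9.79 and 9.76 in the control tongues. The 4NQO tongues lay close together above all control tongues, of which control 1 was lowest. This gave a log2 fold change of 0.64 (95% confidence interval 0.23 to 1.04, limma, adjusted p = 0.258). Within each array the signal of Slc7a11 minus that of Slc3a2 was -3.20, -3.56 and -3.83 in the 4NQO tongues and -4.96, -5.43 and -5.58 in the control tongues. On the main probe sets the change of the light chain was thus larger than that of the heavy chain by 1.79 (log2). The groups did not overlap (exact two-sided permutation p = 0.1, and 0.15 after adjustment over 6 pairs of genes). A p of 0.1 is the smallest that 3 against 3 arrays can give. Measured by its second probe set, Slc7a11 changed by only 0.85, beside 0.64 for Slc3a2, and that pairing was not tested. The size of the difference between the chains therefore rests on the main probe set of Slc7a11.

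Gclc, the catalytic subunit of glutamate-cysteine ligase, had log2 signals of 11.30, 11.53 and 10.81 in the 4NQO tongues, against 8.83, 9.20 and 9.02 in the control tongues. The lowest 4NQO tongue, replicate 3, was still well above the highest control tongue. Gclc rose 4.58-fold (95% confidence interval 3.33-fold to 6.29-fold, or 2.19 as log2, SE 0.20, limma, adjusted p = 0.0116). A second probe set of Gclc measured 10.16, 10.63 and 9.68 in the 4NQO tongues and 7.21, 7.54 and 7.92 in the control tongues, and its rise was 2.60 as log2 (limma over all probe sets, adjusted p = 0.0234). Leaving out 4NQO replicate 1, 4NQO replicate 2 or control replicate 2 ended the call of Gclc, at adjusted p = 0.0538, 0.0692 and 0.0506 in limma, with log2 fold changes of 2.15, 2.04 and 2.28.

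Gclm, which raises the affinity of Gclc for its substrates, had log2 signals of 10.97, 10.57 and 10.83 in the 4NQO tongues, against 9.10, 10.03 and 9.19 in the control tongues. The groups did not overlap, and control 2 stood apart from the other two control tongues, towards the 4NQO values. Gclm had a log2 fold change of 1.35 (SE 0.25, 95% confidence interval 0.78 to 1.93, limma, adjusted p = 0.102), and without control replicate 2 it was 1.65 with an adjusted p of 0.0506. The second probe set of Gclm, with 6.14, 6.37 and 5.73 in the 4NQO tongues and 4.65, 5.14 and 4.66 in the control tongues, gave a log2 fold change of 1.26. In both probe sets control 2 was the highest control tongue.

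The 2 subunits of the ligase were set against each other within each array. Gclc minus Gclm was 0.33, 0.96 and -0.03 in the 4NQO tongues and -0.27, -0.83 and -0.16 in the control tongues. Gclc changed by 0.84 more than Gclm on the log2 scale, without overlap, although 4NQO 3 and control 3 lay only slightly apart (exact two-sided permutation p = 0.1, adjusted 0.15). Without 4NQO replicate 2 this difference was 0.57, and the range over leaving out each array was 0.57 to 1.06.

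Gss, which completes glutathione, had log2 signals of 8.82, 8.72 and 8.41 in the 4NQO tongues, against 7.81, 7.64 and 7.90 in the control tongues. All 4NQO tongues lay above all control tongues with little spread in either group. For Gss the log2 fold change was 0.87 (SE 0.16, 95% confidence interval 0.50 to 1.23, limma, adjusted p = 0.0992), the smallest adjusted p of the 8 genes that did not pass. Its second probe set gave a log2 fold change of 1.01 (SE 0.19). Within each array Gclc changed more than Gss by 1.33 on the log2 scale, without overlap (exact two-sided permutation p = 0.1, adjusted 0.15).

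Gsr, the reductase that recycles oxidised glutathione, had log2 signals of 8.32, 8.74 and 8.30 in the 4NQO tongues, against 7.75, 7.99 and 7.70 in the control tongues. The groups did not overlap. For Gsr the log2 fold change was 0.64 (95% confidence interval 0.24 to 1.03, limma, adjusted p = 0.251), and the second probe set gave 0.66. The change of Gclc was larger than that of Gsr by 1.56 on the log2 scale within arrays, without overlap (exact two-sided permutation p = 0.1, adjusted 0.15). Leaving out each array in turn gave 1.44 to 1.68.

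**Figure D2:**
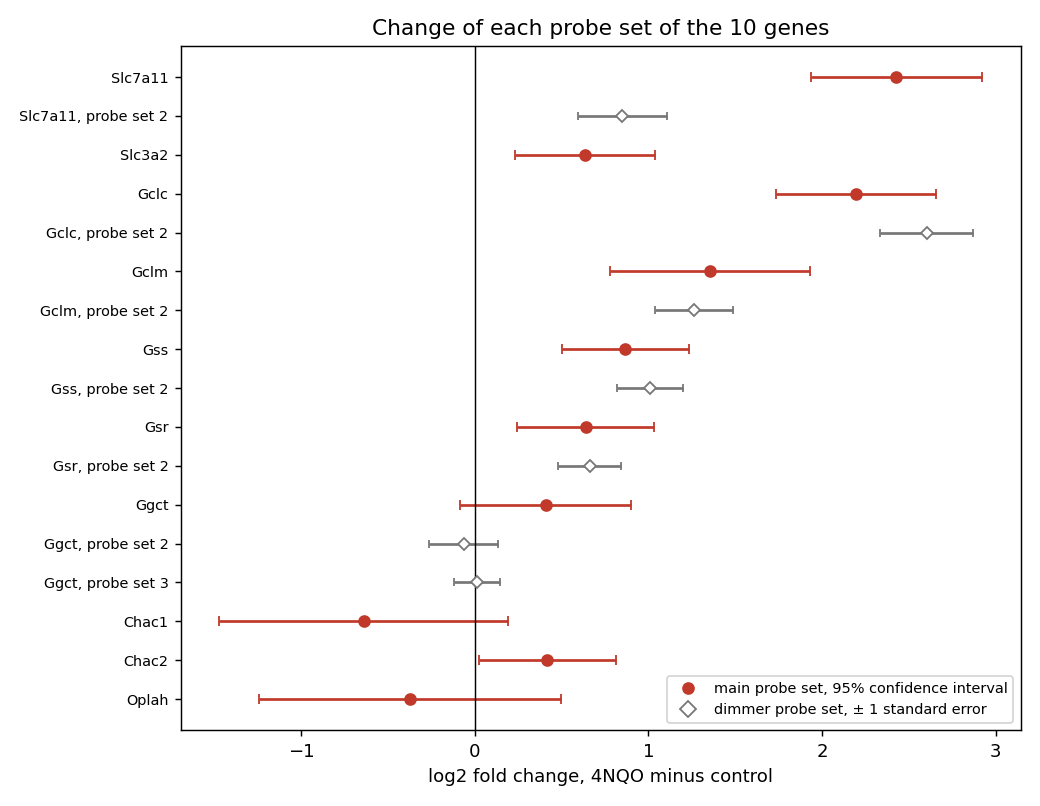
Log2 fold change (4NQO minus control) of each of the 17 probe sets, with filled points and 95% confidence intervals for the main probe set and open points with 1 standard error for dimmer ones. Intervals of the main probe sets cross 0 for Ggct, Chac1 and Oplah, and the second probe sets of Gclc, Gclm, Gss and Gsr lie near their main ones, while that of Slc7a11 lies lower, at 0.85.

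The enzymes of breakdown differed in sign among themselves, and none passed. Chac1, the glutathione-splitting enzyme that ATF4 induces, had log2 signals of 7.34, 7.38 and 7.68 in the 4NQO tongues, against 7.30, 8.11 and 8.90 in the control tongues. The control tongues were spread widely (SD 0.80) and control 1 lay below every 4NQO tongue. For Chac1 the log2 fold change was -0.64 (95% confidence interval -1.47 to 0.19, limma, adjusted p = 0.581). It was -0.24 without control replicate 3 and -1.04 without control replicate 1, so that the size of this difference rests on single control arrays.

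Chac2, a paralogue of Chac1 with the same activity, had log2 signals of 5.27, 5.58 and 5.28 in the 4NQO tongues, against 5.08, 4.75 and 5.03 in the control tongues. The groups did not overlap but lay close together. Chac2 had a log2 fold change of 0.42 (95% confidence interval 0.02 to 0.81, limma, adjusted p = 0.455). Within arrays, Chac2 minus Chac1 was -2.07, -1.80 and -2.40 in the 4NQO tongues and -2.21, -3.36 and -3.87 in the control tongues. These values overlapped, and the 2 changes differed by 1.06 on the log2 scale (exact two-sided permutation p = 0.2, adjusted 0.24), or by 0.69 without control replicate 3.

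Ggct, the glutamyl cyclotransferase, had log2 signals of 5.81, 6.08 and 6.02 in the 4NQO tongues, against 5.84, 5.14 and 5.71 in the control tongues. The groups overlapped through control 1. Its log2 fold change of 0.41 (95% confidence interval -0.09 to 0.90, limma, adjusted p = 0.552) was not shared by its dimmer probe sets, which gave -0.06 and 0.02, and it was 0.20 without control replicate 2. Oplah, the 5-oxoprolinase that returns glutamate to the pool, had log2 signals of 8.69, 7.55 and 8.38 in the 4NQO tongues, against 8.80, 9.08 and 7.86 in the control tongues. Its groups overlapped, with 4NQO 2 and control 3 lowest. The log2 fold change was -0.37 (95% confidence interval -1.24 to 0.50, limma, adjusted p = 0.754). It was -0.046 without 4NQO replicate 2, -0.12 without control replicate 2, -0.61 without 4NQO replicate 1 and -0.73 without control replicate 3. Ggct and Oplah, which act one after the other, differed in their change by 0.78 on the log2 scale (exact two-sided permutation p = 0.4). This difference was 0.32 without control replicate 2, 0.40 without 4NQO replicate 2 and 1.22 without control replicate 3.

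**Figure D3:**
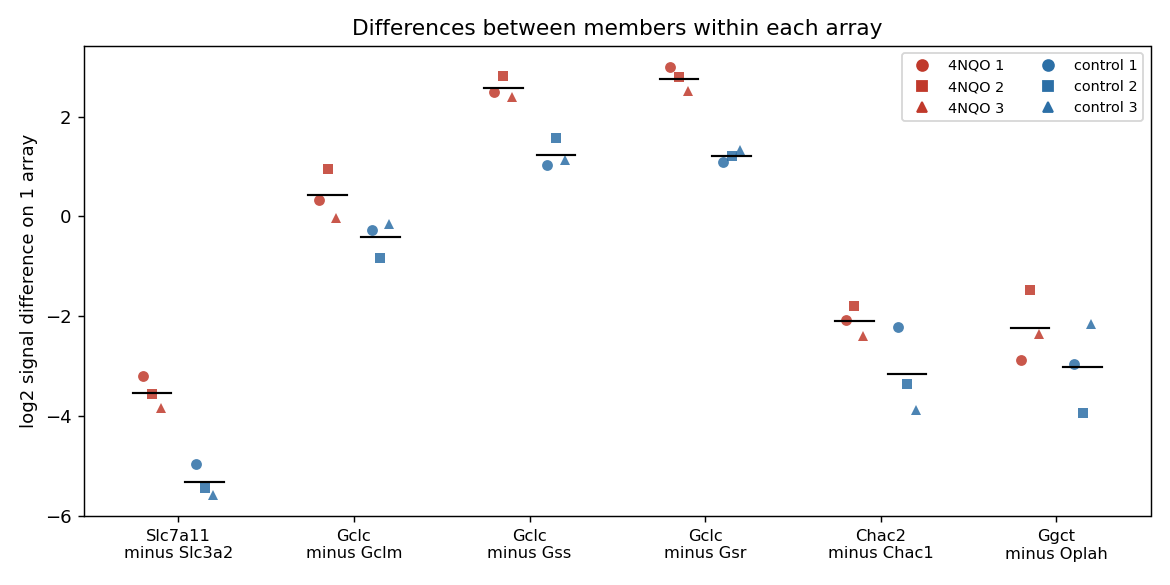
Difference in log2 signal between the main probe sets of 2 of the genes on the same array, with 1 point for each of 3 4NQO and 3 control arrays and bars for group means. The 4NQO arrays lie above all control arrays for the 4 pairs that start with Slc7a11 or Gclc, and the groups overlap for Chac2 minus Chac1 and Ggct minus Oplah. Slc7a11 and Gclc were picked by the study on its tongue arrays, so these 4 differences are not independent evidence.

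4NQO 2 and control 3, the 2 arrays on which Oplah was lowest, also had the weakest 5′ signal of the Gapdh control. The 3′ minus 5′ difference of Gapdh was 1.07 on 4NQO 2 and 1.67 on control 3, against 0.086 to 0.47 on the other 4 arrays. The same difference of the Actb control did not set these 2 arrays apart and was highest on 4NQO 1. It was 1.12, 0.95 and 0.55 in the 4NQO tongues and 0.75, 0.83 and 1.01 in the control tongues. Of 8 skeletal muscle markers, Myh2, a fast myosin heavy chain, and Actn3, a fast-fibre actinin, were also lowest on 4NQO 2 and control 3. Myh2 had log2 signals of 8.49, 5.01 and 9.31 in the 4NQO tongues, against 9.36, 9.01 and 5.43 in the control tongues. Actn3 had 9.39, 7.30 and 9.24 in the 4NQO tongues, against 9.58, 8.78 and 7.74 in the control tongues. The remaining muscle markers varied far less over the arrays. Pygm, Tnnt3 and Acta1 were slightly lowest on the same arrays of each group. Ckm and Myh4 were lowest of the control tongues on control 3, but not lowest on 4NQO 2. On 4NQO 2 Myh4 and Mylpf, at 13.42 and 13.21, were the highest of the 4NQO tongues, Myh4 only slightly (13.40 on 4NQO 1). With the Gapdh difference as a covariate, Oplah had a log2 fold change of -0.40 with an SE of 0.20, against an SE of 0.38 in the main fit. With both arrays left out it had -0.41 with an SE of 0.19. Oplah passed in neither fit (limma, adjusted p = 0.446 and 0.559). The part of these muscle genes in the values of Oplah was not tested. Slc7a11 and Gclc had log2 fold changes of 2.41 and 2.04 with both arrays left out. Neither passed with the 2 tongues per group that remained (limma, adjusted p = 0.154 for both, in a fit chosen after seeing the data), and both passed with the Gapdh difference as a covariate (adjusted p = 0.0127 and 0.0122).

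Markers of the cells that a tongue holds were set beside these genes. Basal keratinocyte markers, averaged over 7 genes with Krt5, Krt14 and Trp63 among them, had log2 means of 10.73 to 11.18 in the 4NQO tongues and 10.65 to 11.13 in the control tongues, and the groups overlapped. Cycling-cell markers did not overlap: their mean was 8.50 to 9.12 in the 4NQO tongues and 7.18 to 8.06 in the control tongues. All 4 measured genes (Birc5, Cdk1, Mki67 and Top2a) had every 4NQO array above every control array, against 9.59% of all genes, although none passed over all genes. T and NK cell markers, 5 genes, had means of 4.08 to 5.14 in the 4NQO tongues and 4.03 to 4.26 in the control tongues, overlapping in 4NQO 1. Suprabasal keratinocyte markers (10.65 to 10.97 in 4NQO and 9.91 to 10.97 in control) and fibroblast markers (9.91 to 10.48 in 4NQO and 10.20 to 10.91 in control) overlapped too. Endothelial markers (8.09 to 8.30 in 4NQO and 8.02 to 8.40 in control) and macrophage and dendritic cell markers (6.84 to 7.78 in 4NQO and 6.58 to 7.35 in control) also overlapped. Within the last list Itgax, an integrin of dendritic cells, had every 4NQO array above every control array, with a log2 fold change of 1.15 (limma, adjusted p = 0.0703). Salivary gland markers (3.62 to 7.29 in 4NQO and 3.50 to 6.32 in control) and adipocyte markers (4.94 to 7.06 in 4NQO and 5.26 to 6.97 in control) overlapped as well. All 8 skeletal muscle genes and all 6 fibroblast genes had negative log2 fold changes, and none passed. The 4NQO arrays lay below all control arrays for 1 and 2 of them, against 7.18% of all genes. All 5 T and NK cell genes had positive log2 fold changes, as had 6 of 7 basal and 6 of 7 suprabasal keratinocyte genes. The exceptions were Krt15 of the basal list, at -0.64 the largest change of that list in size, and Krt4 of the suprabasal list, at -0.20. In these 3 lists the groups overlapped for every gene and none passed. Of all 18193 genes, 8679 had positive and 9514 had negative log2 fold changes. No list was at 0, since array signals have no true 0. The part of cell makeup or of cycling cells in the changes of Slc7a11, Gclc and the other genes was not tested.

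Genes that feed or drain the same pathway were described through 7 lists with 54 measured genes. None of the 54 passed in either direction after adjustment (limma, threshold 0.05). Without adjustment limma placed 6 higher and 1 lower at the same threshold, which is 6 of 54 against 6.68% of all genes and 1 of 54 against 3.74%. Their median log2 fold change was 0.02, beside 0.64 for the 10 genes.

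Of the amino acid carriers, the 5 other light chains that can pair with Slc3a2 had positive log2 fold changes of 0.15 to 0.46, and for none did the groups separate. Slc7a10, a carrier of small neutral amino acids, had 0.32, Slc7a6, a carrier of cationic and neutral amino acids, had 0.25, and Slc7a5, the large neutral amino acid carrier LAT1, had 0.46. Over the 5 other cysteine and cystine carriers the median was -0.05. Slc1a4, a carrier of alanine, serine and cysteine, had log2 signals of 8.58, 8.52 and 7.88 in the 4NQO tongues, against 7.02, 7.80 and 7.38 in the control tongues. These groups did not overlap, and the log2 fold change was 0.93 (limma, adjusted p = 0.267), the largest of the 54 genes. Slc3a1, the heavy chain of the renal cystine carrier, had a log2 fold change of -0.35, and Slc1a1, a glutamate and cysteine carrier, had -0.25.

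In the supply of cysteine from methionine, the median over 11 genes was 0.06 (log2). Cth, which releases cysteine from cystathionine, had log2 signals of 6.46, 6.55 and 6.30 in the 4NQO tongues, against 5.85, 6.02 and 5.96 in the control tongues. Its groups did not overlap, and the log2 fold change came to 0.50 (limma, adjusted p = 0.301). Cbs, the enzyme one step before Cth, had the opposite sign, -0.54 (limma, adjusted p = 0.461), with overlapping groups. Bhmt2, a homocysteine methyltransferase, had 0.20. In the supply of glutamate, serine and glycine, 7 genes had a median of 0.10. Psph and Psat1, both enzymes of serine synthesis, had log2 fold changes of 0.52 and 0.53 with no overlap of the groups (limma, adjusted p = 0.277 and 0.290), and Glud1, glutamate dehydrogenase, had 0.10.

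In the drain on the pathway, the median over 9 glutamyl transferases and peptidases of glutathione breakdown was 0.03 (log2), and the groups overlapped for every one of them. Ggact, a glutamylamine cyclotransferase, had -0.44, Ggt5, which acts on glutathione outside the cell, had 0.42, and Cndp2, a dipeptidase that splits cysteinylglycine, had 0.19. The 8 genes listed under cysteine catabolism had a median of -0.07, also with overlap throughout. Gadl1, a decarboxylase, and Csad, a decarboxylase of the taurine route, had log2 fold changes of -0.50 and -0.31, and Tst, a thiosulfate sulfurtransferase, had -0.12. Neither list held a gene under 0.05 even without adjustment in limma.

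**Figure D4:**
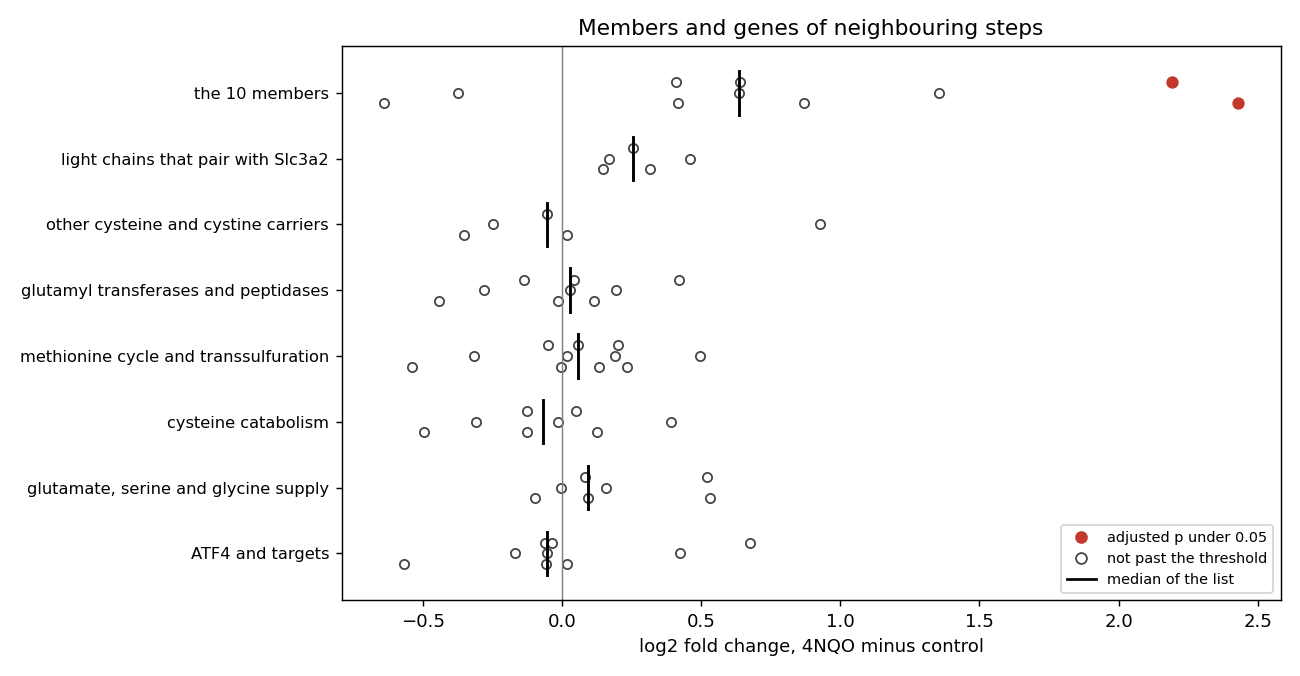
Log2 fold change (4NQO minus control) of the 10 genes and of 54 genes in 7 neighbouring lists, 1 point per gene, filled where the adjusted p from limma was under 0.05, with a bar at each list's median. The 2 filled points are Gclc and Slc7a11, and the medians of the neighbouring lists lie between -0.07 and 0.25.

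ATF4 and 8 of its targets were listed because Slc7a11 and Chac1 both answer to it. Their median log2 fold change was -0.05, with 3 genes positive and 6 negative. The tally does not cover all known ATF4 targets: Slc1a4, Psat1, Psph and Cth, described above with their own lists and without overlap of the groups, are also among them. These 4 were not in the ATF4 list set beforehand. In the same lists as they are, Phgdh, Shmt2 and Slc1a5 had log2 fold changes of 0.16, 0.08 and 0.02, with overlap. Over the 7 lists, 6 of 54 genes had every 4NQO array above every control array, against 9.59% of all genes. Asns, asparagine synthetase, had log2 signals of 8.83, 8.76 and 9.10 in the 4NQO tongues, against 8.06, 8.37 and 8.22 in the control tongues, and the groups did not overlap. Its log2 fold change was 0.68 (SE 0.15, limma, adjusted p = 0.173). Sesn2, a stress-induced inhibitor of growth signalling, had 0.42, again without overlap. Atf5, a factor of the same response, had -0.57, and its values overlapped.

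Genes whose pattern over the 6 arrays was most like that of 3 of the genes were found by the root mean square difference of log2 values, each gene centred on its own mean. For Slc7a11 the nearest of all genes was Gclc, at 0.24, followed by Tnfrsf18, a TNF receptor family member, at 0.31 and Rrm2, a subunit of ribonucleotide reductase, at 0.33. For Gclc they were Rrm2 at 0.18, Tnfrsf18 at 0.24 and Slc7a11 at 0.24. For Gclm they were Kifc1, a kinesin of the mitotic spindle, at 0.18, Artn, a ligand of the RET receptor system, at 0.20 and Ces1f, a carboxylesterase, at 0.25. The measure follows the size of the change, so it places genes that changed by a like amount together.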

How the data were processed

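Total RNA from individual tongues, 3 4NQO-treated and 3 control, was hybridized to Affymetrix mouse arrays. Bioconductor packages in R were used by the authors for normalization, and what they deposited is a log2 signal for each of 45101 probe sets. Which normalization they ran was not given in the sources used here, and no detection calls were used, so dim signals could not be set against background. The number of arrays limits the precision. Probe sets were paired with genes by the platform annotation: 34945 had 1 gene, 932 several, 9160 none and 64 were array controls. Of 18193 genes, 18032 were found by Entrez ID in the GRCm38.p6 table.

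The groups were compared with limma 3.58.1 in R 4.3.3 (lmFit, eBayes with an intensity trend) over all genes, with Benjamini-Hochberg adjustment, a threshold of 0.05 and no filter on dim genes. The authors used SAM, which is given as an alternative because it gives no p for single genes. Differences between genes within arrays were tested with the exact permutation test over arrays. Where a pair starts with Slc7a11 or Gclc, which the study picked on its tongue arrays, the difference is not independent evidence. On simulated data with the same 18193 genes, the fit for 4NQO against control found 47 of 100 genes with a true log2 change of 1 and 87 of 100 with one of 2, beside 3 falsely called genes. The 10 genes and all lists were chosen with earlier results of these data known. Named from each neighbouring list were the 3 genes with the smallest p. Ggt1, Dpep2, Mat2a, Trac, Klrb1c, Dcpp2, Muc19, Plin1, Ccnb1 and some other listed genes were not analysed here. Sqrdl, also listed, is another name of Sqor, which was measured. Alternatives were normalization, centring, a filter on dim genes, choice of probe set, variance model, a replicate block, the Gapdh difference as a covariate, SAM, the methods' t-test, another threshold and leaving out each array. The fit without both arrays of weak 5′ Gapdh signal was chosen after seeing the data. The paper names a different deposit for its arrays.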

Additional observations from a re-analysis of the deposited data

How the results depend on the processing

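The 2 genes that rose, Slc7a11 and Gclc, were called higher by quantile normalization, by centring each array on its median, with the probe set of largest interquartile range, with all probe sets tested, without the trend, with the robust variance model, with the Gapdh covariate and by SAM. Only Gclc was called with dim genes left out, which removes Slc7a11 from the test, and with the mean of all probe sets of a gene (1 of 10 genes each). None was called with the replicate block (0, adjusted p = 0.083 for both) or with both arrays of weak 5′ Gapdh signal left out (0). The cause of these 2 losses beyond the fewer residual degrees of freedom was not tested. Leaving out 1 array gave 0 to 2 called genes: 0 without 4NQO replicate 2 and without control replicate 2, and 1, Slc7a11, without 4NQO replicate 1. The log2 fold change over all alternatives ran from 1.64 to 2.61 for Slc7a11, where the lowest is the mean of both probe sets, and from 2.04 to 2.60 for Gclc. At an adjusted p under 0.10, 3 were called, with Gss added, and 103 of all 18193 genes were higher. The methods' t-test called 7 of the 10 genes and 5 of the 54 neighbouring genes higher without adjustment and 0 with it, and 1046 of all 18193 genes higher without adjustment. No alternative called any of the 10 genes lower. The sign turned for Ggct alone, to -0.064 with its probe set of largest interquartile range. The genes called over the whole array numbered 23 higher and 1 lower, 18 and 1 after centring, 83 and 0 by SAM, 102 and 5 with the Gapdh covariate, 2 and 0 with the replicate block and 0 and 0 without control replicate 2. The replicate numbers share only a number: deviations of same-numbered arrays correlated at 0.29, -0.51 and 0.05. With 3 arrays per group, changes near 1 on the log2 scale are often missed.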
